A study of Glycine max with 4 samples.

Results

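GmWRI1 occupancy at the soybean genes whose description holds the word auxin was examined in embryos at the early maturation (em) stage. GmWRI1 (GLYMA.08G227700) corresponds to WRINKLED1 of Arabidopsis, a transcription factor of the AP2 family known for switching on fatty acid synthesis in seeds. The genes were those in the study's list of bound genes that carry the word in their description, 14 of the 2222 genes in the rows analysed here, with 16 listed binding positions. They comprised 1 F-box receptor, 4 response factors, 3 SAUR genes, 1 GH3 gene and 5 transport genes, and none of the 14 was described as Aux/IAA. Descriptions without the word auxin were not searched for Aux/IAA genes, so the list may hold some.

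Auxin is a plant hormone that moves from cell to cell through influx and efflux carriers in the plasma membrane and thereby forms gradients that pattern the embryo. Inside the nucleus, F-box proteins of the TIR1/AFB family bind auxin together with Aux/IAA repressors, which are then degraded, and this frees auxin response factors (ARF) to act on target genes. SAUR and GH3 genes are classes of genes that auxin induces rapidly.

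All samples were embryos of the cultivar Williams 82, dissected from seeds 6 to 7 mm long and cross-linked with 1% formaldehyde, and the labels name no transgene or treatment. They formed 2 groups of 2 biological replicates each, namely chromatin immunoprecipitated (ChIP) with an antibody against a GmWRI1 peptide, and input chromatin set aside without antibody. By the study's methods the antibody binds both soybean WRI1 proteins, so occupancy by the one or the other cannot be told apart. The peak lists of the 2 ChIP libraries were analysed, and the inputs entered only through the authors' peak calling. The lists hold no expression values, so the labelled tissue was not checked against marker genes.

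The value given for each gene is the fold enrichment of its strongest peak, a ratio computed by the authors between the ChIP reads piled up at the summit and the background around it. Peaks were taken where they overlapped a listed position by at least 1 bp. Replicate 1 held 22982 peaks with a median of 37 reads at the summit, and replicate 2 held 20027 peaks with a median of 26 reads. No peak had a local background under 7.17 reads (replicate 1) or 3.798 reads (replicate 2). Counting intervals are exact Poisson 95% intervals on the summit reads with the background taken as fixed, so they cover counting error only.

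The list of bound genes had a sheet for the em stage and a sheet for the cot stage, both analysed here in part. The em rows reached 54.5 Mb of chromosome 1 and named 445 genes, 2 of them auxin genes. The cot rows spanned 16 chromosomes and named 1884 genes, 12 of them auxin genes. The cot sheet came from other samples than these, so for its 12 auxin genes a peak here was a measurement in samples that the sheet had not used. The study describes those cot-stage libraries as falling short of the ENCODE standards for ChIP-Seq quality, which limits every comparison within that sheet. For the 2 em-listed genes a peak was part of how they were chosen. Of the 12 cot-listed genes, 3 also had a site in the study's list of em target sites, and whether the other 9 were listed as bound at the em stage was not analysed here. Each gene was set beside the other listed genes of its own sheet only. The auxin genes themselves were also summarised and ordered together across the sheets, which list sites of different strength. The median fold enrichment of the other genes was 13.6 in the cot sheet and 5.92 in the em sheet.

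All 12 cot-listed auxin genes overlapped a peak in both replicates, where 99.4% of all cot-listed genes did, and so did both em-listed auxin genes, where 92.8% of all em-listed genes did. The mean fold enrichment of the 14 genes had a median of 11.7 and extended over a range of 5.30 to 28.2. The response factors, em-listed ARF19 among them, had a median of 17.3, the transport genes 11.8 and the SAUR genes 9.77. The plot of fold enrichment by gene shows the receptor and the ARF4 copies at the upper end and ARF19, a PIN3 copy and a SAUR gene at the lower end.

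**Figure D1:**
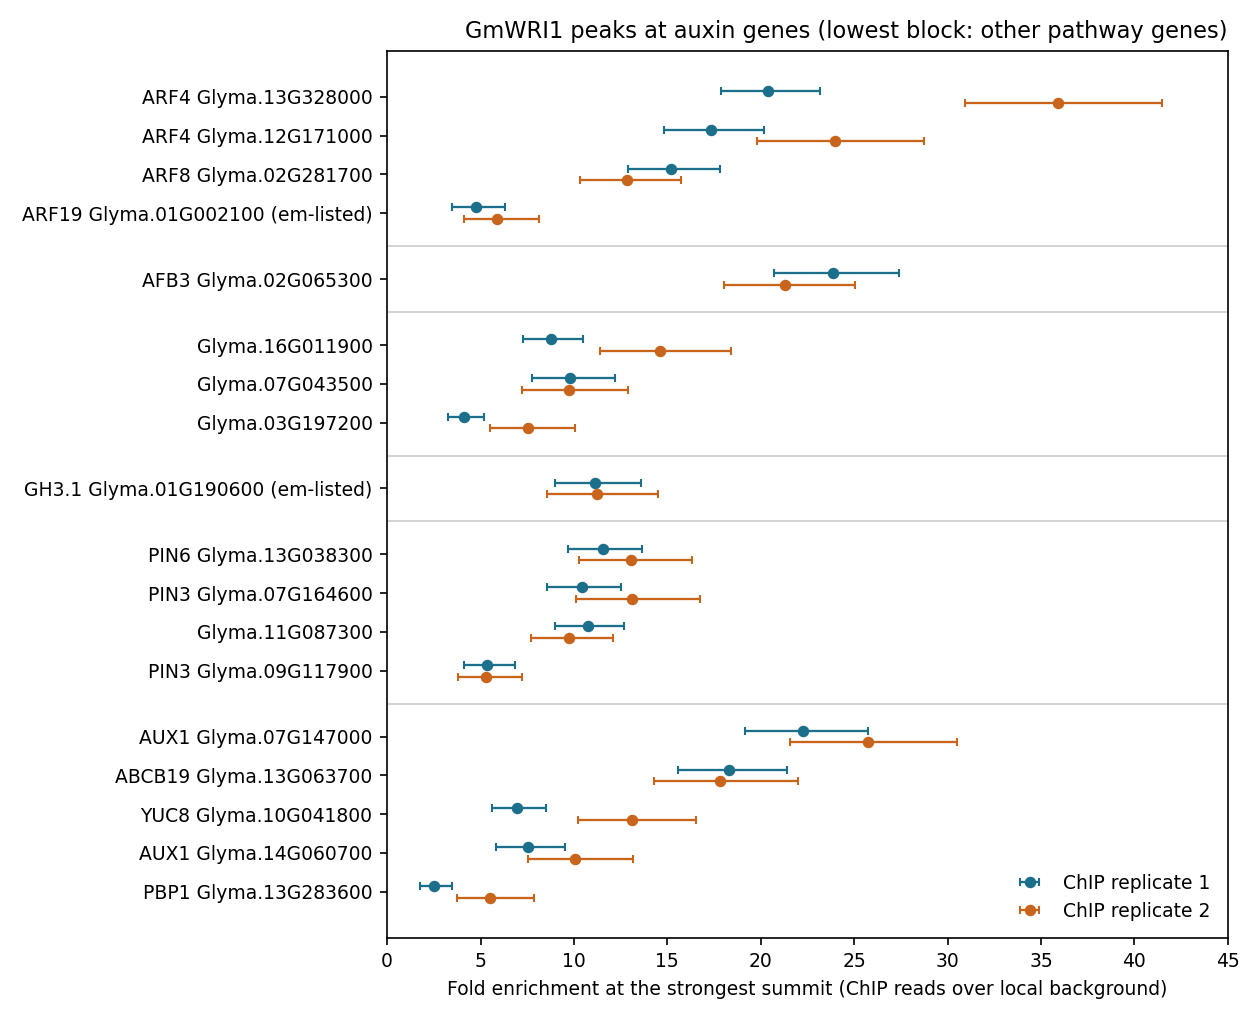
Fold enrichment (x axis, ChIP reads over local background) at the strongest summit of 13 auxin genes, in blocks by role. The lowest block holds 5 other auxin pathway genes chosen by homolog, each with a peak in both replicates. Points are the 2 ChIP replicates and bars are exact Poisson 95% counting intervals. Values extend from 4.14 in replicate 1 at the SAUR gene Glyma.03G197200 to 35.9 in replicate 2 at ARF4 Glyma.13G328000 among the 13 auxin genes.

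The auxin receptor gene was among the most strongly occupied of the 14 auxin genes. Glyma.02G065300 is described as auxin signaling F-box 3 (AFB3), which in Arabidopsis is a receptor of the TIR1/AFB family and the substrate-binding part of an SCF ubiquitin ligase. Its peak had a fold enrichment of 23.9 in replicate 1 and 21.3 in replicate 2, with a mean of 22.6 ± 1.81 (SD, n = 2). The summits held 199 and 147 reads, and the counting intervals of 20.7 to 27.4 and 18.0 to 25.02 overlapped. The peak was narrow, at chr2:5814780-5815381 in replicate 1 and chr2:5814796-5815327 in replicate 2 (build Wm82.a2.v1), with summits 15 bp apart. It ranked 445 among the 1873 cot-listed genes with a peak in both replicates, and the nearest other reproducible region was 15950 bp away.

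Among the response factors, the 2 copies of ARF4 stood highest and ARF19, the only em-listed one, lowest. The place of ARF19 mixes the sheets, since other em-listed genes had a median of 5.92 and other cot-listed genes 13.6. ARF proteins bind auxin response elements in promoters, and ARF4 belongs to the class that mostly represses transcription and in Arabidopsis helps to specify the lower leaf side. The copy Glyma.13G328000 had a fold enrichment of 20.4 in replicate 1 and 35.9 in replicate 2 (28.2 ± 10.97, SD, n = 2), the highest mean of the 14 genes. Its summits held 236 and 184 reads over backgrounds of 10.6 and 4.15 reads. The counting intervals were 17.9 to 23.2 and 30.9 to 41.5, so the replicates differed by more than counting error. The summits were only 9 bp apart, in peaks at chr13:42265818-42267988 and chr13:42265720-42267427 that were 2171 and 1708 bp wide.

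The other copy, Glyma.12G171000, had a fold enrichment of 17.3 in replicate 1 and 24.0 in replicate 2 (20.7 ± 4.68, SD, n = 2). The summits held 167 and 114 reads, at chr12:32648940-32650179 and chr12:32649171-32650197. Both of its listed positions lay within this peak, which was 1240 bp wide in replicate 1 and 1027 bp wide in replicate 2. It also had 2 sites in the list of em target sites. At the site under the strong peak, the summits lay 7 and 12 bp from its centre. The other site held a summit 5189 bp away from the strong one, with a fold enrichment of 3.55 in replicate 1 and no peak in replicate 2.

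ARF8, an activating response factor with roles in flower and fruit development in Arabidopsis, was occupied at a narrow peak near the middle of the cot-listed genes. Glyma.02G281700 had a fold enrichment of 15.2 in replicate 1 and 12.8 in replicate 2 (14.01 ± 1.69, SD, n = 2), with 151 and 88 reads at summits 5 bp apart. The peaks were at chr2:46401841-46402420 and chr2:46401869-46402351, and the gene ranked 898 of 1873.

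ARF19, an activating response factor with a part in lateral root formation in Arabidopsis, was em-listed and had spread occupancy. Its occupancy was weak beside the cot-listed response factors, but it ranked 240 of 413 within its own sheet. Glyma.01G002100 had a fold enrichment of 4.73 in replicate 1 and 5.87 in replicate 2 (5.30 ± 0.805, SD, n = 2), with 45 and 34 reads at summits 1 bp apart. These peaks were at chr1:296496-297306 and chr1:296558-296945. Its second listed position held summits 3704 and 3707 bp away, with a fold enrichment of 2.82 and 3.89. In replicate 2 a further peak at a listed position, with a fold enrichment of 4.91, had its summit 416 bp from the strongest one. A pair of weaker peaks with a fold enrichment of 4.04 and 4.62 overlapped between the replicates 6567 and 6557 bp away. ARF19 thus had reproducible peaks at more than 1 separate listed position. No other gene of the 14 could show this. The listed positions of ARF4 Glyma.12G171000 lay within 1 peak, and the remaining genes had 1 listed position each.

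SAUR genes encode small, short-lived proteins, several of which promote cell expansion in Arabidopsis. The 3 SAUR genes had narrow peaks of at most 664 bp. Glyma.07G043500 gave nearly equal values, with a fold enrichment of 9.79 in replicate 1 and 9.75 in replicate 2 (9.77 ± 0.0290, SD, n = 2) and 79 and 47 reads, at chr7:3604415-3605078 and chr7:3604404-3604930. Its summits lay 25 and 20 bp from the centre of an em target site and 45 bp from each other, the widest gap among the 14 genes. A neighbouring region had summits 2718 and 2745 bp away, with a fold enrichment of 9.30 in replicate 1 and 6.78 in replicate 2. The counting intervals of the listed and the neighbouring peak overlapped in replicate 1 (7.78 to 12.2 and 7.34 to 11.6) and in replicate 2 (7.22 to 12.9 and 4.85 to 9.23).

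Glyma.16G011900, a SAUR gene with the same Arabidopsis homolog, had a fold enrichment of 8.78 in replicate 1 and 14.6 in replicate 2 (11.7 ± 4.10, SD, n = 2). The summits held 118 and 69 reads, at chr16:1017974-1018395 and chr16:1017968-1018429, and lay 10 and 6 bp from the centre of an em target site. This gene also had a neighbouring region with summits 2123 and 2163 bp away, with a fold enrichment of 3.06 and 4.79, both below the listed peak. On its other side, peaks 589 and 2288 bp away, with a fold enrichment of 3.96 and 4.79, were called in replicate 2 only.

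Glyma.03G197200, a SAUR gene with another Arabidopsis homolog, was the weakest of the group. Its fold enrichment was 4.14 in replicate 1 and 7.55 in replicate 2 (5.84 ± 2.41, SD, n = 2), with 71 and 44 reads at chr3:40663341-40663913 and chr3:40663568-40663894. The local background in replicate 1 was 16.4 reads, the highest of the 14 genes, against 4.96 reads in replicate 2.

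GH3 enzymes attach amino acids to auxin or related acids and so lower the free hormone in many tissues. The em-listed GH3.1 gene, Glyma.01G190600, had a fold enrichment of 11.1 in replicate 1 and 11.2 in replicate 2 (11.2 ± 0.0799, SD, n = 2). The summits held 94 and 57 reads and were 3 bp apart. The peak was 958 bp wide in replicate 1 (chr1:52532550-52533507) and 481 bp wide in replicate 2 (chr1:52532810-52533290). A second peak at the listed position, 915 bp from the first and with a fold enrichment of 2.97, was called in replicate 1 only. Among the 413 em-listed genes with a peak in both replicates, GH3.1 ranked 83 and ARF19 ranked 240.

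The 5 transport genes are described as auxin efflux carriers, and 4 of them are reported singly here. PIN proteins export auxin from the cell, and the side of the cell on which they sit sets the direction of flow. Of these 4 genes, 3 had values that lay close together, and a PIN3 copy lay below them in both replicates.

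PIN6, a carrier found in part on the endoplasmic reticulum in Arabidopsis, had a fold enrichment of 11.5 in replicate 1 and 13.03 in replicate 2 at Glyma.13G038300 (12.3 ± 1.06, SD, n = 2). The summits held 133 and 74 reads, 28 bp apart, in peaks 547 and 490 bp wide (chr13:11846280-11846826 and chr13:11846318-11846807).

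PIN3, a carrier that redistributes auxin in growth responses to gravity and light in Arabidopsis, was represented by 2 copies. Glyma.07G164600 had a fold enrichment of 10.4 in replicate 1 and 13.1 in replicate 2 (11.8 ± 1.92, SD, n = 2), with 110 and 62 reads at chr7:23450886-23451467 and chr7:23450940-23451417. This peak stood alone, since the nearest other reproducible region was 1334557 bp away. Glyma.09G117900 had a fold enrichment of 5.34 in replicate 1 and 5.31 in replicate 2 (5.32 ± 0.0223, SD, n = 2), with 61 and 39 reads at chr9:27968108-27968520 and chr9:27968208-27968510. Here a neighbouring region of like strength, with a fold enrichment of 5.16 and 5.91, had its summits 4193 and 4181 bp away.

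The remaining efflux carrier gene, Glyma.11G087300, has no symbol in the list. Its Arabidopsis homolog there is AT5G65980, and whether it encodes a PIN protein was not examined. The gene is cot-listed. Glyma.11G087300 had a fold enrichment of 10.7 in replicate 1 and 9.71 in replicate 2 (10.2 ± 0.719, SD, n = 2), with 134 and 78 reads at summits 3 bp apart, at chr11:6552687-6553193 and chr11:6552751-6553137.

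Ordered by mean fold enrichment, the 14 genes formed 13 neighbouring pairs, of which 10 overlapped in their replicate ranges. The ranges were apart between ARF4 Glyma.12G171000 and ARF8, between GH3.1 and Glyma.11G087300, and between the SAUR genes Glyma.07G043500 and Glyma.03G197200. A range of 2 values can be narrow by accident. For GH3.1 and Glyma.11G087300, which come from different sheets, the counting intervals overlapped in both replicates. For the ARF4 and ARF8 step the counting intervals were apart in replicate 2 only, and for the SAUR step in replicate 1 only. The order of neighbours within the middle of the list, from ARF8 to the SAUR gene Glyma.07G043500, was therefore not resolved by these replicates. Fold enrichment was higher in replicate 2 than in replicate 1 for 7 of 12 cot-listed auxin genes, against 71.1% of all cot-listed genes, and for 2 of 2 em-listed ones, against 62.5% of all em-listed genes. The counting intervals of the replicates were apart for 3 genes, ARF4 Glyma.13G328000 and the SAUR genes Glyma.16G011900 and Glyma.03G197200, all higher in replicate 2. These 3 genes had local backgrounds of 10.6, 12.5 and 16.4 reads in replicate 1, above the median of 8.51 reads at the other cot-listed genes. The median of the 12 cot-listed auxin genes in replicate 1 was 10.6 reads. PIN6 and PIN3 Glyma.09G117900 had 10.6 reads and Glyma.11G087300 had 11.6 reads, with counting intervals that overlapped between the replicates. The part of the background in the difference between replicates was not tested.

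Other genes linked to auxin synthesis or transport stood in the same list under descriptions without the word. The 6 taken here were chosen by Arabidopsis homolog and need not be all such genes. Of these, 5 had a peak in both replicates. AUX1 carries auxin into cells, and the 3 copies taken here covered a wide span. Glyma.07G147000 had a fold enrichment of 22.3 in replicate 1 and 25.8 in replicate 2 (24.0 ± 2.46, SD, n = 2), in peaks 2568 and 1785 bp wide. The copy Glyma.14G060700 had 7.52 and 10.1 (8.80 ± 1.80, SD, n = 2). The em-listed copy Glyma.01G114000 had a peak of 3.67 in replicate 1 and none in replicate 2.

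ABCB19 is a transporter that exports auxin using ATP. At Glyma.13G063700 it had a fold enrichment of 18.3 in replicate 1 and 17.8 in replicate 2 (18.1 ± 0.345, SD, n = 2). YUC8 is a flavin monooxygenase of the last step of auxin synthesis, and at Glyma.10G041800 it had 6.94 and 13.1 (10.0 ± 4.35, SD, n = 2). PBP1 binds PINOID, a protein kinase that controls where PIN proteins sit in Arabidopsis. At Glyma.13G283600 it had only 2.51 and 5.51 (4.01 ± 2.12, SD, n = 2), at a position listed also for Glyma.13G283500. The strongest of these genes, AUX1 Glyma.07G147000, exceeded every transport gene of the auxin list in both replicates.

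In strength, the auxin genes lay within the span of the other genes of their sheet, and no test of the difference was run. The 12 cot-listed auxin genes had a median fold enrichment of 12.03, against 13.6 for 1861 other cot-listed genes with a peak in both replicates. The ratio of these medians was 0.883, with 0.853 in replicate 1 and 0.901 in replicate 2 alone. The middle 50% of the other genes extended over 9.35 to 21.8, and 4 of 12 auxin genes lay above their median. In ChIP reads at the summit the medians were 133 for the auxin genes and 125 for the other genes in replicate 1, and 75.5 and 82 in replicate 2. The median local background was 10.6 against 8.51 reads in replicate 1 and 4.46 against 4.61 reads in replicate 2, and its part in the lower ratio was not tested. Of the em-listed auxin genes, GH3.1 with 11.2 lay above and ARF19 with 5.30 below the median of 5.92 for 411 other em-listed genes.

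**Figure D2:**
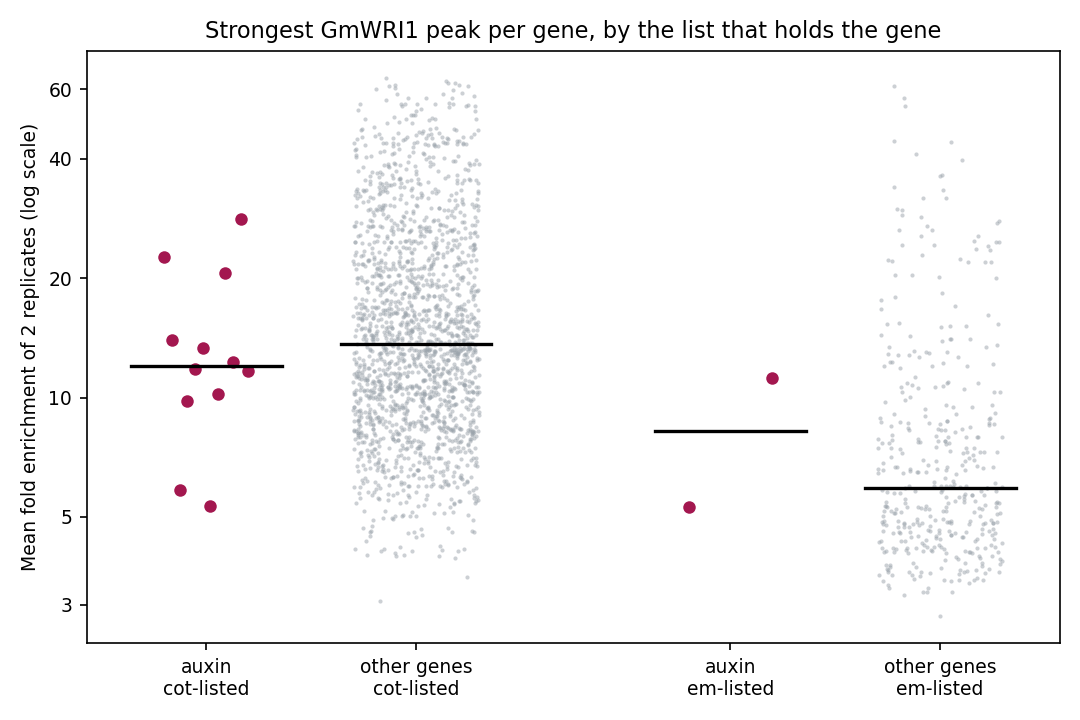
Mean fold enrichment of the 2 replicates (y axis, log scale) for auxin genes and other genes, kept apart by the sheet that lists them. Each point is a gene and lines are medians, at 12.03 for 12 cot-listed auxin genes, 13.6 for other cot-listed genes, 8.24 for 2 em-listed auxin genes and 5.92 for other em-listed genes. The auxin genes lie within the span of the other genes.

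The cot-listed auxin genes reached the strongest 20% of all peaks about as often as all cot-listed genes did. That limit was a fold enrichment of 6.48 in replicate 1 and 7.64 in replicate 2, and 10 of 12 passed it in both, against 82.1% of all cot-listed genes. Of the em-listed auxin genes 1 of 2 passed, against 30.1% of all em-listed genes. The SAUR gene Glyma.03G197200, the PIN3 copy Glyma.09G117900 and ARF19 did not pass. Within the genes of their own sheet, 0 of the 14 lay in the strongest 20% in both replicates, against 16.6% of all cot-listed and 16.4% of all em-listed genes. AFB3 and GH3.1 did so in replicate 1 only, and ARF4 Glyma.13G328000 in replicate 2 only. With −log10 q as the measure, ARF4 Glyma.13G328000 did so in both.

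The position of the peaks was closely repeated between the replicates. Summits lay within 50 bp of each other for all 12 cot-listed auxin genes, against 82.1% of all cot-listed genes, and for both em-listed ones, against 62.2% of all em-listed genes. Peaks over 1 kb in both replicates were found at 3 of 12 cot-listed auxin genes, among them the ARF4 copies, against 31.2% of all cot-listed genes. No em-listed auxin gene had such a peak, against 13.6% of all em-listed genes. The median width at cot-listed auxin genes was 581 bp in replicate 1 and 486.5 bp in replicate 2, against 796 and 719 bp at other cot-listed genes. Another reproducible region lay within 5 kb at 4 of 12 cot-listed auxin genes, against 34.3% of all cot-listed genes. These were ARF4 Glyma.13G328000, the SAUR genes Glyma.16G011900 and Glyma.07G043500, and PIN3 Glyma.09G117900. Among the em-listed ones it did so at ARF19, where it was the second listed position, against 30.5% of all em-listed genes.

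**Figure D3:**
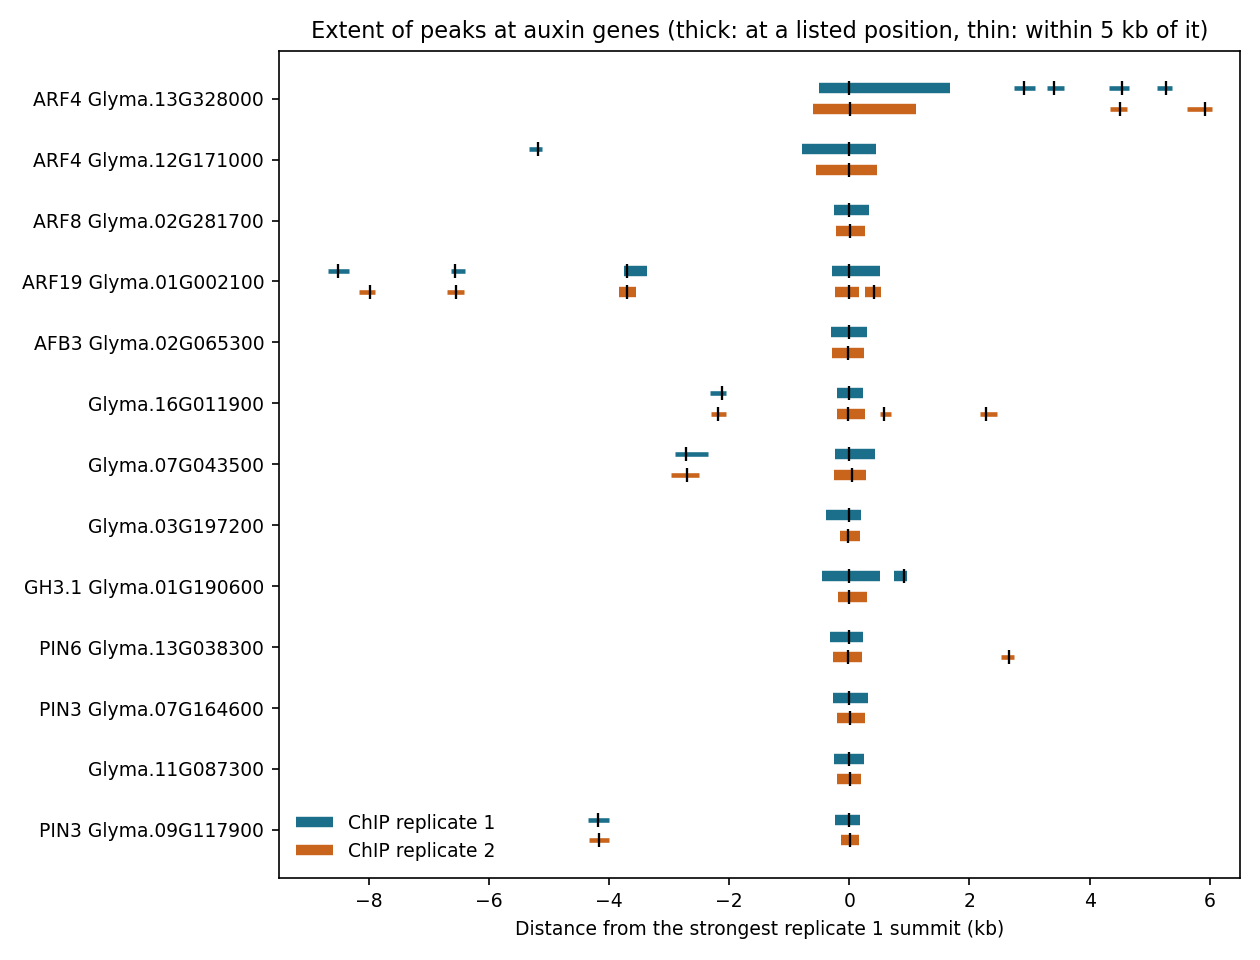
Extent of the peaks at 13 auxin genes, as distance in kb from the strongest replicate 1 summit (x axis), with the genes on the y axis and the replicates in colour. Thick bars are peaks at a listed position, thin bars are other peaks within 5 kb of one, and black ticks are summits. The peak at ARF4 Glyma.13G328000, 2171 bp wide in replicate 1, is the widest shown, and the strongest summits of the replicates lie at most 45 bp apart at every gene shown.

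The soybean genome holds many duplicated genes, and 3 pairs among the auxin genes shared an Arabidopsis homolog. How reads that match both copies of a pair were assigned is not described in the sources used here, so the values of copies are uncertain to that extent. In fold enrichment the PIN3 copies were the most unequal. Glyma.07G164600 exceeded Glyma.09G117900 by 1.95-fold in replicate 1 and 2.47-fold in replicate 2, or 0.97 and 1.31 on the log2 scale (1.14 ± 0.24, SD, n = 2), and the counting intervals of the copies were apart in both. In summit reads the log2 difference was smaller, at 0.76. The ARF4 copy Glyma.13G328000 exceeded Glyma.12G171000 by 1.18-fold in replicate 1 and 1.498-fold in replicate 2, or 0.41 ± 0.25 on the log2 scale (SD, n = 2), with intervals apart in replicate 2 only. The SAUR copies Glyma.16G011900 and Glyma.07G043500 differed by -0.16 in replicate 1 and 0.58 in replicate 2 on the log2 scale (0.21 ± 0.52, SD, n = 2). In fold enrichment the replicates thus disagreed in direction, and the counting intervals overlapped in both. In summit reads the direction was the same, with Glyma.16G011900 higher by 0.58 in replicate 1 and 0.55 in replicate 2 on the log2 scale. The local background in replicate 1 was 12.5 reads at Glyma.16G011900 and 7.17 reads at Glyma.07G043500. Its part in the difference was not tested.

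For 227 other pairs of cot-listed genes that shared a homolog, the difference in mean fold enrichment had a median of 0.42 on the log2 scale without sign, with quartiles of 0.18 and 0.77. On the same measure the PIN3 pair differed by 1.15, above the upper quartile. The ARF4 pair with 0.45 and the SAUR pair with 0.26 lay between the quartiles. The plot of copies shows the PIN3 difference in both replicates.

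**Figure D4:**
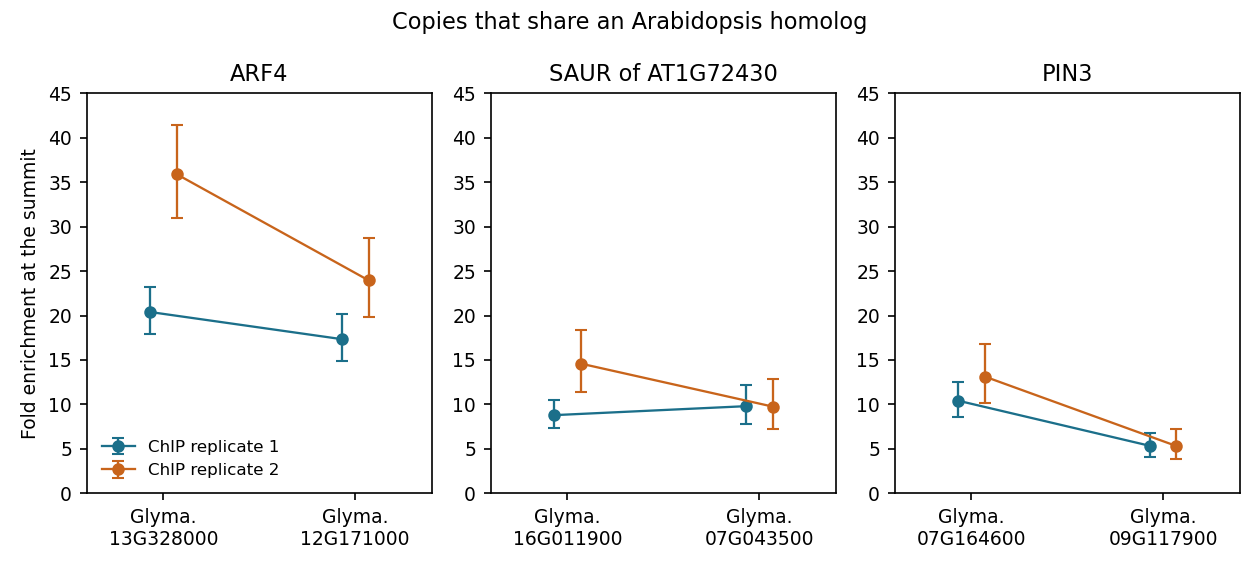
Fold enrichment (y axis) of the copies of ARF4, of the SAUR gene and of PIN3 (x axis), with lines joining the copies within a ChIP replicate and bars for exact Poisson 95% counting intervals. The PIN3 copy Glyma.07G164600 lies 1.95- and 2.47-fold above Glyma.09G117900, whereas the lines of the SAUR copies run in opposite directions.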

How the data were processed

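ChIP chromatin and input chromatin of em-stage embryos were sequenced by the authors, and 2 ChIP peak lists were used here. The submitters' processing notes name Bowtie 0.12.7 for alignment and MACS2 for peak calling. For MACS2 no version is given in the sources used here. MACS3 is the program named in the methods of the study, so the deposited peaks may differ from those behind its lists of bound genes. Peak names carry a q threshold of 0.01. Mapping options and the treatment of duplicate reads, which set the summit reads, were not described there. Coordinates are 1-based and taken as Wm82.a2.v1 from the study's annotation note, and the build used in alignment is unnamed. No annotation of that build was used, so positions relative to exons, introns and start sites were not analysed here, and no sequence is shown.

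The deposited fold enrichment is the authors' ratio of reads plus 1 to background plus 1 at the summit. The deposited −log10 p and −log10 q are the authors' values for the same summit. The deposited score is 10 times −log10 q as a whole number and was not used, and the deposited summit offset gave summit positions. From fold enrichment and −log10 p the summit reads and background were solved, within 0.001, for 100% of peaks in both lists. On 1000 simulated peaks for each list, the reads were recovered in 100% for replicate 1 and 99.5% for replicate 2. Depth is given as summit reads, without library totals.

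Samples were grouped by their labels. Listed positions served only as links from gene to peak, and no value of the study's tables was used. The genes and lists were chosen with earlier results of these data known. All genes with the word auxin were counted and named, except 1 that is not reported here singly, with 6 pathway genes chosen by homolog. Since there were 2 ChIP replicates and no input values, no test was run and comparisons are by counts, medians and intervals. The alternatives were a −log10 q of at least 10, other overlap rules, −log10 q or summit reads as the measure, leaving out genes with shared positions, and leaving out each replicate. Adding the em target sites to the listed positions was chosen after seeing the data. Python 3.11.15 with pandas 2.3.3, numpy 2.4.6, scipy 1.17.1 and matplotlib 3.10.9 were used.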

Additional observations from a re-analysis of the deposited data

How the results depend on the processing

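The number of auxin genes with a peak in both replicates was 14 of 14 under both other overlap rules. Every strongest peak had a −log10 q over 10, and leaving out a replicate only drops a requirement, so those settings left it at 14 by construction. The ratio of medians between auxin and other cot-listed genes was between 0.873 and 0.896 under the other settings, and between 0.853 and 0.901 with 1 replicate left out. The mean fold enrichment of single genes moved by less than 1 SD in 28 of 28 comparisons with another overlap rule or the stricter q. The stricter q leaves them unmoved by construction. The number of auxin genes in the strongest 20% of their sheet was 0 by fold enrichment in both replicates, 1 by −log10 q, and between 1 and 2 with 1 replicate left out, which by construction drops the need for both.

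Leaving out 1 replicate gave log2 differences of 0.23 to 0.58 for the ARF4 copies and 0.97 to 1.31 for the PIN3 copies. For the SAUR copies the range was -0.16 to 0.58, and the difference reversed to -0.16 without replicate 2. With summit reads as the measure, the PIN3 difference was 0.76, the ARF4 difference was 0.59 and the SAUR difference was 0.57. Fold enrichment also contains the local background, in which the PIN3 copies differed. Why their backgrounds differed was not tested. No paired analysis was possible because no values of the input libraries were used here, so ChIP and input were not compared. The differences between copies were taken within each ChIP replicate.

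Depth limits weak sites most. The summits of ARF19 held 45 and 34 reads, and the median peak held 37 and 26. How reads that match several gene copies were assigned is not described in the sources used here. Only part of the em list was analysed here, so the 14 genes need not be the complete set of auxin genes bound at that stage.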
